A study of Drosophila melanogaster with 4 samples.

Results

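The nuclear genes of the mitochondrial respiratory chain were taken as all genes of the count table whose FlyBase identifier maps to a symbol that begins with ND-, UQCR-, COX or ATPsyn, together with SdhA, SdhB, SdhC and SdhD. This gave 84 of 17510 genes, 40 of complex I, 4 of complex II, 9 of complex III, 16 of complex IV and 15 of complex V. RNA had been sequenced from adult Drosophila melanogaster guts, dissected without crop and Malpighian tubules, as 2 libraries labelled wild type and 2 labelled as RNAi knockdown of CG5789 (Cftr, the gene the study uses to model the human chloride channel CFTR), from a transgenic line of the National Institute of Genetics collection. The driver of the RNAi, the age and sex of the flies and a transgene control are not stated in the labels, so the RNAi, the transgene and the line background cannot be told apart. The sample titles number the libraries S1 to S4 across the genotypes, with no replicate number within a genotype; wild type 1 and 2 are here S1 and S3, and RNAi 1 and 2 are S2 and S4.

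The respiratory chain passes electrons from NADH through complex I, or from succinate through complex II, to ubiquinone, then through complex III and cytochrome c to complex IV, where oxygen is reduced. Complexes I, III and IV pump protons across the inner mitochondrial membrane, and complex V, the ATP synthase, uses their return to make ATP. Most subunits are encoded in the nucleus and a few in the mitochondrial genome, and absorptive enterocytes of the gut depend on ATP for nutrient and ion transport. In flies many of the nuclear genes also have a duplicate whose symbol ends in L and which is often expressed mainly in testis.

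Library totals ranged from 11294882 to 30537063 counts. The targeted gene Cftr had 13.8 and 43.4 CPM (the count scaled to a common library total, with TMM factors) in wild type 1 and 2 and 13.8 and 17.5 CPM in RNAi 1 and 2, with an edgeR adjusted p of 1.0. RNAi 1 was thus not below wild type 1, and each direction below is for libraries as labelled. With the library sets described next as a term, Cftr had a log2 fold change of -0.65 (edgeR adjusted p = 0.442), and DESeq2 with that term did not call it either. It was called lower with that term in limma-voom (-0.66, adjusted p = 0.0341), beside a background of 4.33% of all tested genes called lower. An edgeR fit with a trend on exon length also removed, added after seeing the data, called it lower too (-0.75, adjusted p = 0.00274, background 5%). Over all 9637 tested genes, principal component 1 (52.6% of the variance) separated a first pair of libraries, wild type 1 with RNAi 1 (set 1), from the other pair (set 2), and the next, with 34.3%, separated the genotypes. These sets were read from the counts and are named in no label, although they fall on neighbouring title numbers (S1 with S2, S3 with S4). Gut identity was present, with the trypsin gene alphaTry at 18989.8 to 32981 CPM and the enterocyte gene Myo31DF at 85.5 to 260.5 CPM. No label states whether libraries of 1 genotype were made from different flies, and p-values therefore measure only the spread among these libraries, which may be technical. In such bulk RNA, fewer cells of a type and less RNA per cell cannot be told apart.

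Nearly all genes of the standard complexes were abundant in the gut, while the duplicates were close to silent. A total of 64 of the 84 genes passed the filter on low counts: 60 of the 63 without a duplicate name and 4 of the 21 duplicates. The 60 had mean levels from 50.0 to 2224 CPM, and the 4 duplicates (UQCR-11L, ND-51L1, ATPsynepsilonL and UQCR-6.4L) from 0.408 to 3.30 CPM. UQCR-11L, the most abundant of the duplicates, was at 4.08 and 2.87 CPM in wild type and 3.78 and 2.45 CPM in RNAi, and its standard counterpart UQCR-11 at 286 and 216 CPM in wild type. ND-51L1 was at 0.865 and 1.17 CPM in wild type and 0.769 and 1.30 CPM in RNAi, and UQCR-6.4L at 0.554 and 0.269 CPM against 0.705 and 0.245 CPM. The other 17 duplicates had at most 22 counts in a library. Of 13 testis markers, fzo (1.89 to 4.31 CPM) and Mst77F (0.530 to 1.62 CPM) passed the filter. The rest were at 0.353 CPM or less in every library, a level that Mst98Ca had in RNAi 1. Among them, the sperm tail gene dj and the testis tubulin gene betaTub85D were at 0.224 CPM or less.

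Members at 0 in all libraries numbered 6, of which 4 were duplicates (UQCR-14L, COX5BL, COX6CL and ATPsynGL). A count of 0 allows a level of up to 0.0982 to 0.266 CPM, from 3 counts per library total, which covers counting error only. The remaining pair were ND-MNLL and UQCR-14, standard subunits of complexes I and III. In the BDGP6 annotation 100% of the exon length of ND-MNLL is shared with CG45089 on the same strand, which was also at 0, and 100% of that of UQCR-14 lies within exons of CG32576 on the opposite strand. ND-B8, another standard subunit of complex I, had 1 count in all and shares 15.4% of its exon length with Gs1l on the opposite strand. The rule and strand setting of the counting are not given in the sources used here, and these values are not read as absence of the transcripts. Of the 64 tested genes 27 share exon sequence with another gene in the table, by up to 40.5% of their length (UQCR-6.4 with POSH), and the split of such reads is uncertain.

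Complexes IV and V had the highest levels per length and complex I the lowest. Taken as CPM per kb of annotated exon over the 60 tested members without a duplicate name, the median was 450 to 853 for complex IV and 338 to 732 for complex V across the 4 libraries, against 113 to 202 for complex I. COX8 (mean 1195 CPM per kb), a small subunit of cytochrome c oxidase, ATPsynC (1191), which forms the rotor ring of the ATP synthase, and COX7B (1160) led, followed by COX5A (880.5) and the catalytic ATPsynbeta (726). The lowest of these 60 were ND-MWFE (59.3), an accessory subunit of complex I, ND-75 (65.6), the large iron-sulphur subunit of complex I, and ND-13A (70.7). SdhA, with the flavin site that oxidises succinate, was at 75.2 and the membrane anchor SdhC at 633 CPM per kb, so that subunits of 1 complex differed by more than the libraries of either gene. Exon length was taken over all annotated transcripts, which lowers this level for genes with long minor isoforms.

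**Figure D1:**
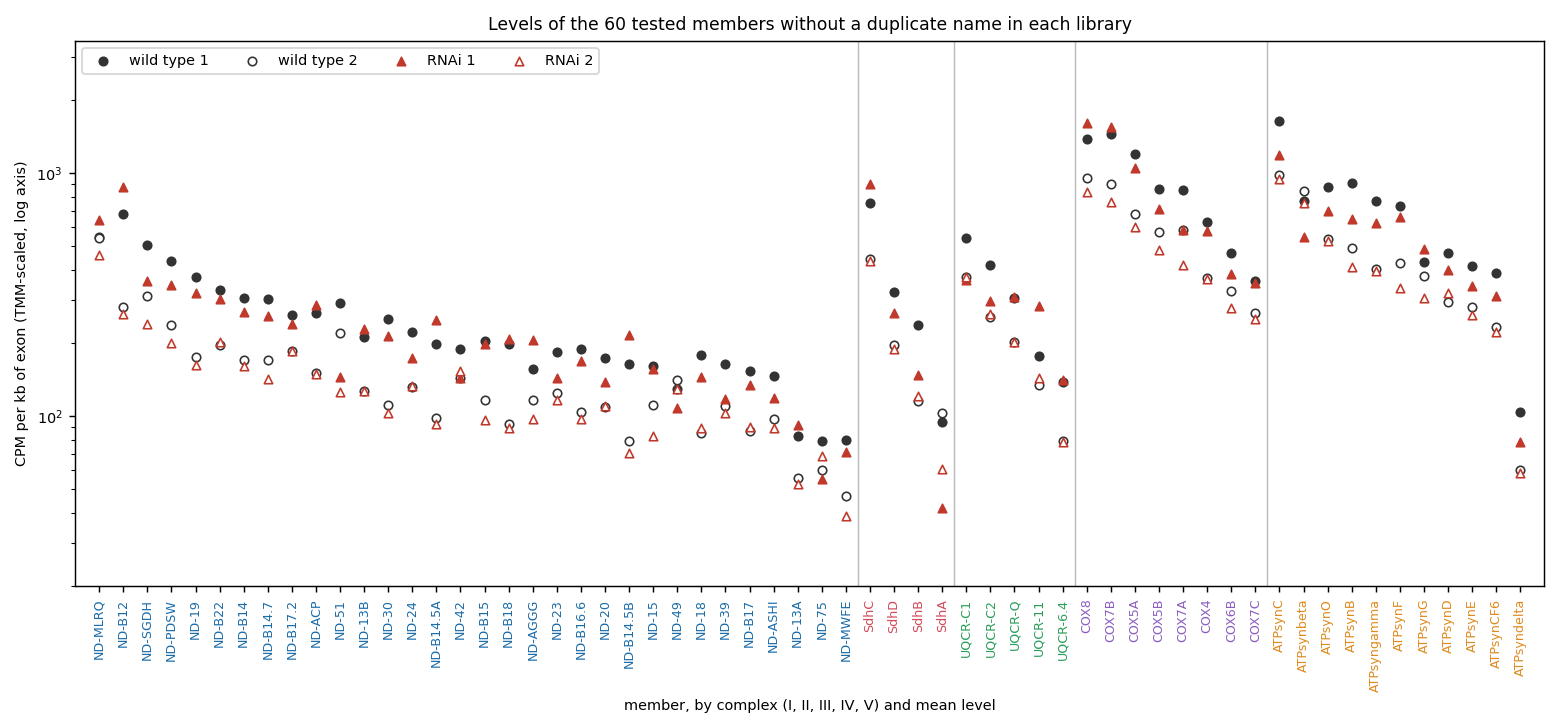
Level of each of the 60 tested members without a duplicate name, as TMM-scaled CPM per kb of exon (log axis), ordered by complex and mean level, with circles for wild type and triangles for RNAi and filled symbols for the first library of each genotype. The first libraries lie above the second ones for most members, and the circles and triangles of 1 set lie close together.

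Most of these genes were lower in the second library of each genotype than in the first. Wild type 2 was below wild type 1 in 60 of 64 members, with a median log2 CPM difference of -0.72, and RNAi 2 was below RNAi 1 in 57 of 64, with a median of -0.61. For 57 members both held, against a background of 38.7% of all tested genes, whose medians were 0.003 and -0.012. ND-B12, an accessory subunit in the membrane arm of complex I, had 409.8 and 170.3 CPM in wild type and 529.7 and 160.1 CPM in RNAi, and SdhC had 684 and 401 CPM in wild type and 816 and 393 CPM in RNAi. In both genes the libraries split by set and the genotypes overlapped. The summed counts of all 84 genes took 2.42% of wild type 1, 2.23% of RNAi 1, 1.66% of wild type 2 and 1.60% of RNAi 2. The mean share was 1.92% ± 0.450 (SD, n = 2) in RNAi and 2.04% ± 0.534 (SD, n = 2) in wild type, an exact permutation p of 0.667 (two-sided). The smallest p this design allows is 0.333, so that test cannot decide whether the genotypes differ. It also does not pair the libraries by set. Within set 1 the share in RNAi was 0.924 of that in wild type, and within set 2 it was 0.961.

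This difference between libraries went with exon length over all genes, and in wild type most members also lay below that trend. Exon length was at most 1000 bases in 39 of the 60 standard members, 65.0%, against 16.5% of the 9585 tested genes with a length. Wild type 2 was below wild type 1 in all 39 of these short members, with a median of -0.74, and the same difference over all 1580 tested genes of at most 1000 bases had a median of -0.66. In the RNAi libraries the medians were -0.74 for the short members and -0.76 for all short genes. Across all 9585 genes, Spearman's rho of the wild-type difference with exon length was 0.523, and across the 60 members 0.233, values over genes that share the same 2 libraries. The 21 members over 1000 bases were also mostly lower in the second libraries, 18 of them in wild type (median -0.59) and 15 in RNAi (median -0.33), where all 8005 tested genes over 1000 bases had medians of 0.12 in both. With a smooth trend on exon length taken out of each library, wild type 2 was below wild type 1 in 48 of the 60 members (median -0.22), against 4914 of all 9637 genes, and RNAi 2 below RNAi 1 in 36 (median -0.07), against 4596. The source of these differences was not tested.

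A few members went the other way between sets. ATPsynbeta had 1828 and 2003 CPM in wild type and 1308 and 1789.7 CPM in RNAi, and ND-49, a core subunit of complex I, had 206 and 225 CPM in wild type and 171 and 206 CPM in RNAi. SdhA had 260 and 284 CPM in wild type and 115 and 167 CPM in RNAi. These 3, with exon lengths of 2386, 1593 and 2750 bases, and the duplicate ND-51L1 were the 4 members that were higher in the second library of both genotypes, where the background was 38.2%; ND-49 was singled out after its values were seen.

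**Figure D2:**
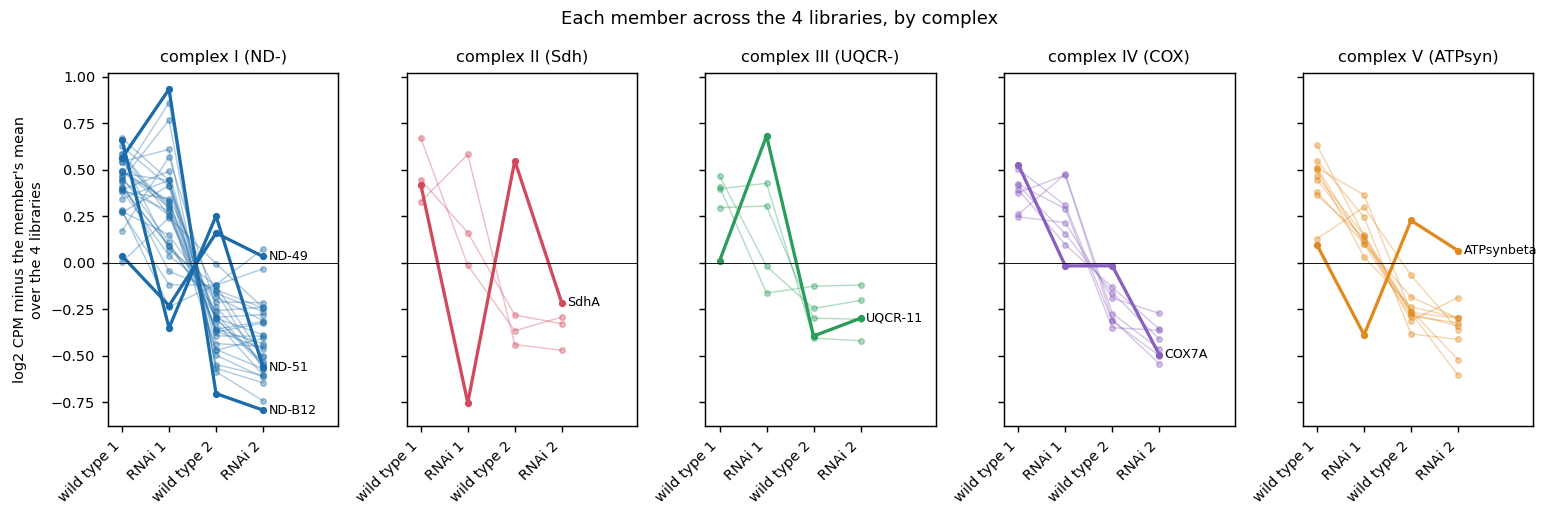
log2 CPM of each of the 60 standard members in the 4 libraries, relative to its own mean, in 1 panel per complex, with 7 named genes drawn as thick lines. Most lines step down from the libraries of set 1 to those of set 2, while SdhA, ND-49 and ATPsynbeta are higher in wild type 2 than in wild type 1.

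Between genotypes no member passed the test, and the members as a group lay slightly lower in RNAi. By edgeR's quasi-likelihood test over all 4 libraries, 0 of 64 were called lower, where the background was 0.0208% of all tested genes, and 0 were called higher (background 0.104%). Each member had an adjusted p of 1.0, and 0 were called in either direction by DESeq2 (background 0.955%) or limma-voom (background 0.125%). At an unadjusted p under 0.05 there were 2, SdhA and ND-51, which is 3.13% of the members against 3.83% of all tested genes. The log2 fold change (RNAi over wild type) was below 0 in 47 of 64 members (73.4%, against 49.3% of all tested genes), with a median of -0.17 (all tested genes 0.006) and a range from -0.95 for SdhA to 0.45 for UQCR-11. With the library set as a term the median was -0.16, with 48 of 64 below 0. Leaving out 1 library, which leaves the sets unbalanced between genotypes, moved it to 0.20 (wild type 1 left out), 0.12 (RNAi 2), -0.45 (wild type 2) or -0.48 (RNAi 1).

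Within each set the same direction was seen in about as many genes, with smaller sizes in set 2. RNAi 1 was below wild type 1 in 47 of 64 members (median log2 CPM difference -0.20) and RNAi 2 below wild type 2 in 50 of 64 (median -0.09), where the medians over all tested genes were -0.007 and 0.001. In 34 members, 53.1%, RNAi was lower in both sets, beside a background of 30.9% of all tested genes, and in 1, UQCR-11, it was higher in both, beside 30.5%. Within a set each genotype is 1 library, so these differences have no replicate error of their own. Both RNAi libraries lay below both wild-type libraries in 5 members (7.81%, background 12.2%), and in 0 members did both lie above (background 12%). The 5 were ND-51, SdhA, COX7A, ND-49 and ATPsynbeta.

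With the library set as a term in the model, an alternative that rests on sets read from these counts and leaves 1 residual degree of freedom, 2 members were called lower and 0 higher, beside backgrounds of 3.65% and 3.45% of all tested genes. These 2 are 3.13% of the members, so their number is close to the background. DESeq2 and limma-voom with the same term called the same 2, SdhA and ND-51, beside backgrounds of 1.98% and 4.33% called lower.

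**Figure D3:**
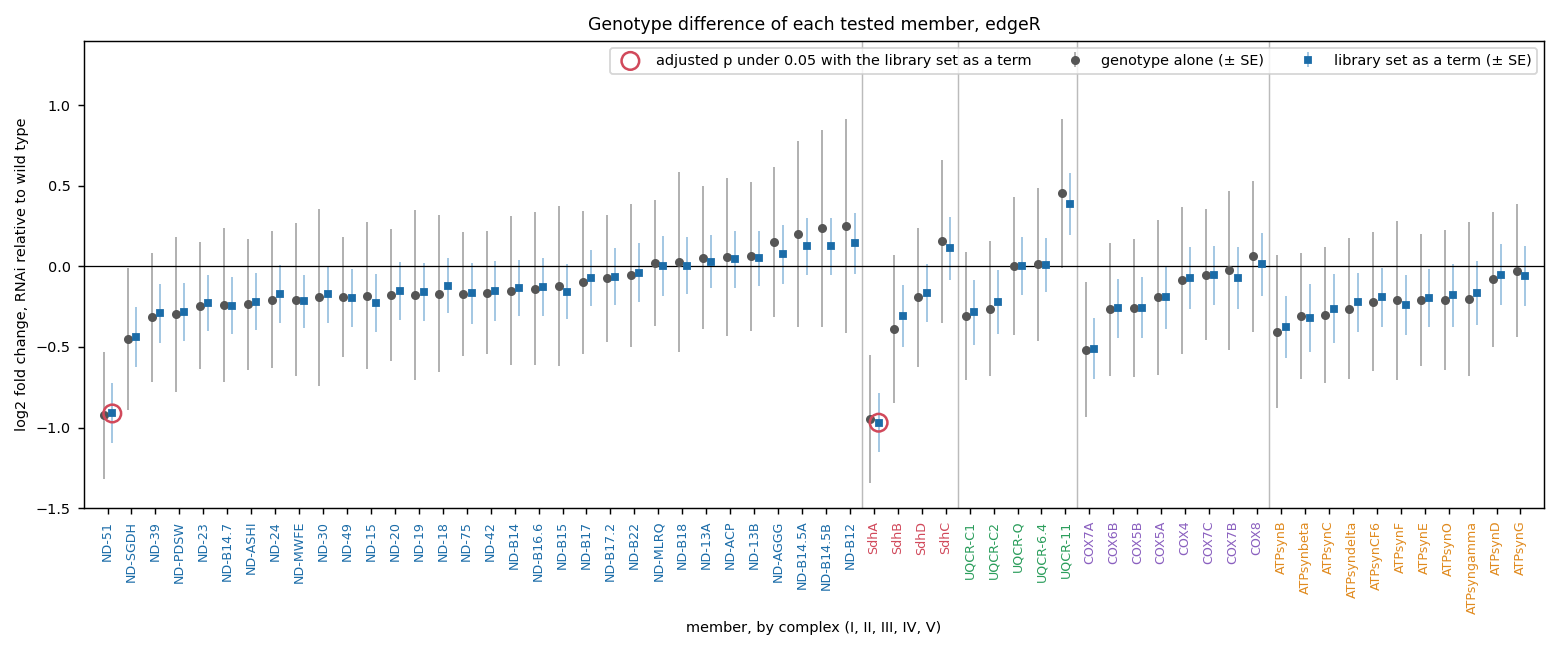
edgeR log2 fold change of RNAi relative to wild type, with its standard error, for the 60 standard members by complex, from the fit with genotype alone (grey circles) and with the library set as a term (blue squares). Rings mark ND-51 and SdhA, the 2 members with an adjusted p under 0.05 in the latter fit.

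In complex I, which takes electrons from NADH, the largest difference was in the subunit that binds NADH. ND-51 carries the NADH and flavin site and is encoded on arm 2L, minus strand, at 6060842 to 6062757 of BDGP6. It had 464 and 350.0 CPM in wild type 1 and 2 and 230.4 and 199 CPM in RNAi 1 and 2. The 2 RNAi libraries were below both wild-type libraries. Its log2 fold change was -0.92 (SE 0.39, edgeR adjusted p = 1.0), and with the library set as a term -0.91 (SE 0.19, edgeR adjusted p = 7.66e-04), a fold change of 0.531. Leaving out each library in turn gave log2 fold changes from -1.10 to -0.73, none of them past the threshold.

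The other 31 standard subunits of complex I had smaller differences. ND-SGDH, an accessory subunit of the membrane arm, had 447 and 278 CPM in wild type and 318 and 213 CPM in RNAi, with a log2 fold change of -0.45 (SE 0.44). RNAi was lower within both sets, with log2 differences of -0.49 and -0.39, but RNAi 1 was above wild type 2. ND-39, an accessory subunit of the matrix arm, had 266 and 178 CPM in wild type and 190.3 and 166 CPM in RNAi, a log2 fold change of -0.32 (SE 0.40). ND-MLRQ, the most abundant member of complex I per length and a protein assigned to complex IV in mammals, had 292 and 291 CPM in wild type and 345 and 246 CPM in RNAi, higher in set 1 and lower in set 2. ND-B12, described above, was at 0.37 in set 1 and -0.09 in set 2 on the log2 scale. The 7 conserved core subunits that hold the flavin and iron-sulphur clusters or the quinone site (ND-75, ND-51, ND-49, ND-30, ND-24, ND-23 and ND-20) all had negative fitted values, with a median of -0.19 (-0.17 with the set as a term). The other 25 subunits had a median of -0.12, with 16 below 0. In set 1 RNAi was lower in all 7 core subunits and in 16 of the other 25. In set 2 it was lower in 4 core subunits and in 21 of the others. The median exon length was 1336 bases for the core subunits and 807 for the others, and the part of length in these values was not tested.

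Complex II also belongs to the tricarboxylic acid cycle, where it oxidises succinate to fumarate, and of its 4 subunits SdhA alone was called in any fit. SdhA, on the minus strand of 2R at 19391863 to 19395971, had the lowest fitted value of all members. Its levels, given above, were lower in both RNAi libraries than in either wild-type library. The log2 fold change was -0.95 (SE 0.40, edgeR adjusted p = 1.0), and with the library set as a term -0.97 (SE 0.18, edgeR adjusted p = 3.25e-04), a fold change of 0.510. Without single libraries it ranged from -1.28 to -0.70, with no call. SdhB, the iron-sulphur subunit, had 289 and 141 CPM in wild type and 179.7 and 148 CPM in RNAi, with log2 differences of -0.69 in set 1 and 0.07 in set 2. SdhD, a membrane anchor, was at -0.28 and -0.05 in the 2 sets, and SdhC, the other anchor, at 0.25 and -0.03.

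**Figure D4:**
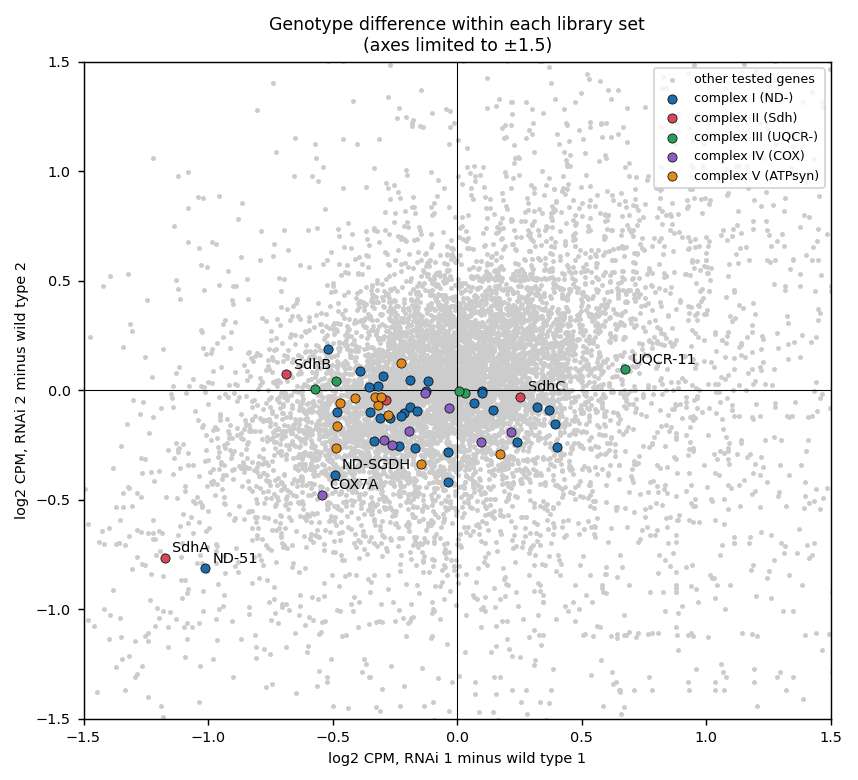
Difference in log2 CPM between RNAi and wild type within set 1 (horizontal axis) and within set 2 (vertical axis) for the 60 standard members, coloured by complex, over all other tested genes in grey. SdhA and ND-51 lie lowest in both sets, most members lie left of 0 on the horizontal axis and near 0 on the vertical axis, and UQCR-11 lies to the right.

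In complex III, which hands electrons to cytochrome c, the large core subunits and the small UQCR-11 were on opposite sides in set 1. UQCR-C1 had 883 and 609 CPM in wild type and 594 and 612 CPM in RNAi, and UQCR-C2 had 704 and 429.7 CPM in wild type and 503 and 443 CPM in RNAi. Both were lower in RNAi 1 than in wild type 1, with log2 differences of -0.57 and -0.49, and within 0.05 of 0 in set 2 (0.006 and 0.04). UQCR-11 had 286 and 216 CPM in wild type and 456 and 231 CPM in RNAi, higher by 0.67 in set 1 and 0.10 in set 2. Its log2 fold change was 0.45 (SE 0.46), or 0.39 with the set as a term (SE 0.19, edgeR adjusted p = 0.282), and without RNAi 1 it was -0.12. The 5 tested standard members of complex III had a median of 0.003.

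In complex IV, cytochrome c oxidase, COX7A stood lowest. It had 592 and 406 CPM in wild type and 406 and 292 CPM in RNAi, so that RNAi 1 (406.1) and wild type 2 (406.2) met at the edge of the groups. The difference was -0.54 in set 1 and -0.48 in set 2, and the log2 fold change -0.52 (SE 0.42), or -0.51 with the set as a term (SE 0.19, edgeR adjusted p = 0.104). It passed in 1 fit alone, with the set as a term and the exon-length trend removed (log2 fold change -0.56, edgeR adjusted p = 0.0426, beside a background of 5% called lower), a fit added after seeing the data. COX6B and COX5B, nuclear subunits of the same enzyme, had log2 fold changes of -0.27 (SE 0.41) and -0.26 (SE 0.43). COX7B and COX8, the most abundant per length, were at -0.02 and 0.06, each higher in set 1 (0.09 and 0.22) and lower in set 2 (-0.24 and -0.19). RNAi 2 was below wild type 2 in all 8 tested standard members of complex IV, and RNAi 1 below wild type 1 in 6. The shares over all tested genes were 49.9% and 50.6%. The median exon length of these 8 was 759 bases, and 939 of all 1580 tested genes of at most 1000 bases were lower in RNAi 2 than in wild type 2.

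In complex V all 11 tested standard subunits had fitted values below 0, from -0.40 for ATPsynB to -0.03 for ATPsynG, with none called. ATPsynB, of the stalk that holds the catalytic head, had 836 and 451 CPM in wild type and 596 and 376 CPM in RNAi, lower within both sets, with log2 differences of -0.49 and -0.26. ATPsynC had 3071 and 1841 CPM in wild type and 2218 and 1768 CPM in RNAi, at -0.47 and -0.06. ATPsynbeta, whose levels are given above, was at -0.48 and -0.16, with a log2 fold change of -0.31 (SE 0.39). In ATPsynbeta both RNAi libraries were below both wild-type libraries, while in ATPsynB and ATPsynC the genotypes overlapped. Without wild type 1 the log2 fold changes of ATPsynB and ATPsynC were 0.08 and 0.09. As a share of the library, complex V took 0.925% and 0.666% in wild type and 0.777% and 0.648% in RNAi.

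The genotype difference in set 1 also went with exon length among the members. Spearman's rho between that difference and exon length was -0.499 over the 60 members and 0.0963 over all tested genes, and in set 2 it was 0.327 over the 60 members and 0.0617 over all tested genes; the members share libraries, so these are descriptions. The 21 members over 1000 bases had a median of -0.39 in set 1 with 19 below 0, and the 39 shorter ones a median of -0.17 with 25 below 0. All tested genes of at most 1000 bases had a median of 0.08 in set 1, and all those over 1000 bases a median of -0.02. In set 2 the median was -0.10 for the shorter members and -0.09 for all short genes. For longer members it was -0.04 in set 2, and 0.02 for all longer genes. With the length trend removed, the median over the 60 members was -0.26 in set 1 and -0.08 in set 2, against -0.06 and -0.003 over all tested genes.

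**Figure D5:**
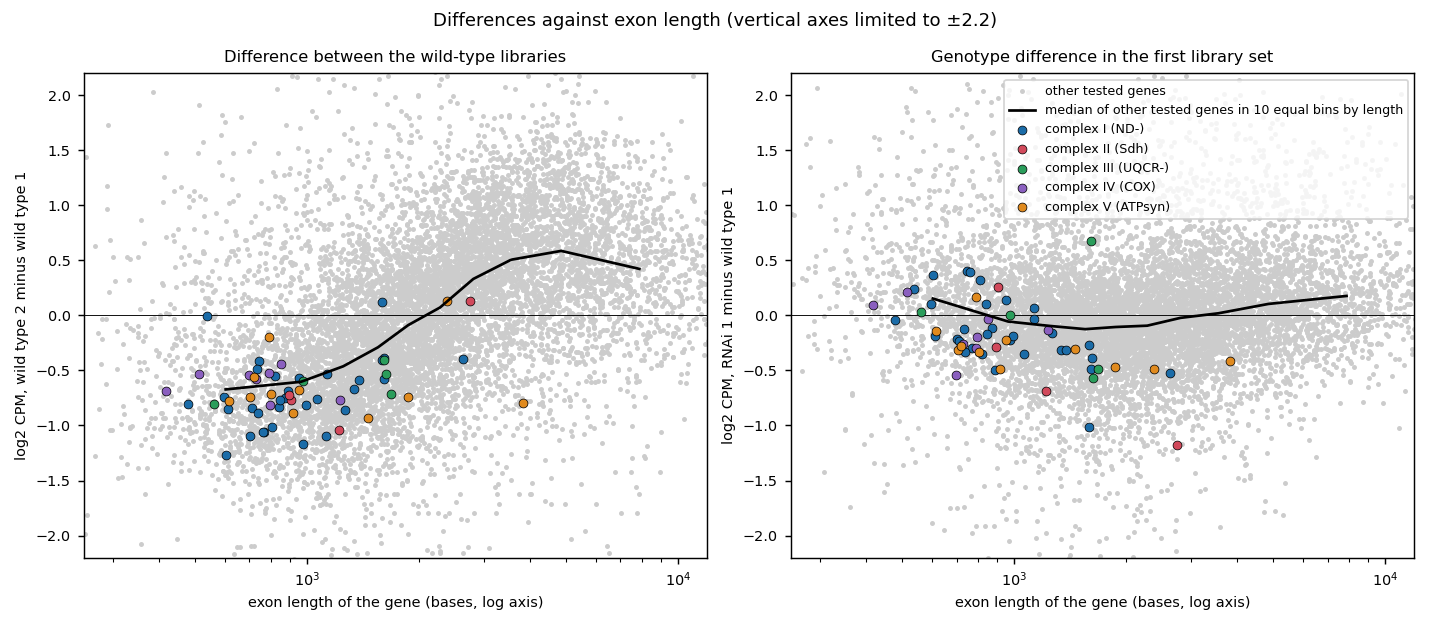
Difference in log2 CPM against exon length (log axis) for wild type 2 minus wild type 1 (left) and RNAi 1 minus wild type 1 (right), with the 60 standard members coloured by complex, the other tested genes in grey and the median of those other genes in bins of equal gene number by length as a line. On the left short members and short genes alike lie below 0, and on the right most of the longer members, with SdhA and ND-51 lowest, lie below the line, while UQCR-11 lies above it.

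Other genes of mitochondrial energy metabolism were taken from lists with fixed names. Subunits of the chain with other symbols, such as blw (ATP synthase alpha), Cyt-c1, RFeSP and levy, had 9 tested genes with a median log2 fold change of -0.12 and none called with the set as a term. In set 1 blw was at -0.53 (1426 CPM in wild type 1 and 986 in RNAi 1), beside its catalytic partner ATPsynbeta at -0.48. In set 2 blw was at 0.13 and ATPsynbeta at -0.16. The set 1 value was not particular to these partners, with Cyt-c1 at -0.47, while levy was at 0.21. In the tricarboxylic acid cycle 2 of 14 tested genes were called lower with the set as a term and 0 higher, beside the backgrounds of 3.65% and 3.45%. They were Idh3g and Idh3b, subunits of the NAD-dependent isocitrate dehydrogenase. Idh3g had 192 and 216 CPM in wild type and 98.1 and 155 CPM in RNAi, and its log2 fold change was -0.73 (SE 0.18, edgeR adjusted p = 0.00774). Idh3b had 229 and 224 CPM in wild type and 131 and 173 CPM in RNAi, and its log2 fold change was -0.59 (SE 0.18, edgeR adjusted p = 0.0418). In both genes, as in SdhA, the groups did not overlap. Both RNAi libraries lay below both wild-type libraries in 3 of the 14 genes, beside a background of 12.2%. The third was Idh3a, with 346 and 255 CPM in wild type and 194 and 224 CPM in RNAi. With the set as a term its log2 fold change was -0.51 (edgeR adjusted p = 0.113), so it was not called. Without the set term 0 of these genes passed in edgeR.

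Of 8 tested mitochondrial carriers and porins 1 was called lower with that term (background 3.65%). It was the phosphate carrier gene Mpcp1 (7.20 and 8.71 CPM in wild type, 2.47 and 4.49 CPM in RNAi). The more abundant Mpcp2 (715 and 727 CPM in wild type, 508 and 618 CPM in RNAi) was not called (-0.36, edgeR adjusted p = 0.341). The main ADP/ATP carrier sesB was at -0.14. Of 12 tested names listed as assembly factors, Mics1 was called higher (background 3.45%) and stl lower (background 3.65%). Mics1 was at 0.484 and 0.0898 CPM in wild type and 1.51 and 1.63 CPM in RNAi. These levels come from 14 and 1 counts in wild type and 47 and 40 counts in RNAi, so its call rests on values near the floor. The gene stl encodes a secreted metalloprotease and was listed in error. Of 10 tested genes for mitochondrial DNA upkeep and regulation, among them the PGC-1 homologue srl at -0.37 (SE 0.17, edgeR adjusted p = 0.234), and of 3 for uncoupling and citrate transport, 0 were called. None of the 13 subunits encoded in mitochondrial DNA was called, and their summed level was 28468 and 32791 CPM in wild type and 32246 and 30005 CPM in RNAi, higher in RNAi 1 and lower in RNAi 2.

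Muscle markers also lay lower in RNAi, with none called in the fit with genotype alone. Within both sets, RNAi was below wild type in all 12 listed genes of visceral and body muscle (background 30.9%), and 4 of them (Act87E, TpnC47D, up and sls) were called lower with the set as a term (background 3.65%). Their summed level was 1659 and 3029 CPM in wild type and 1243 and 2069 CPM in RNAi. Between libraries of a genotype that sum was higher in set 2, where the respiratory chain members were lower. Other marker genes called with the set as a term were Npc1b (an enterocyte sterol uptake gene, 90.9 and 145 CPM in wild type, 283 and 514 CPM in RNAi), the enteroendocrine hormone gene NPF (43.0 and 30.1 CPM, then 22.4 and 15.7 CPM) and the yolk protein gene Yp1 (69.3 and 73.4 CPM, then 81.2 and 159.7 CPM). They were 1 of 5 tested enterocyte genes (background 3.45% higher), 1 of 5 enteroendocrine genes (3.65% lower) and 1 of 3 fat body genes (3.45% higher). RNAi was lower in both sets in 1, 3 and 0 genes of these lists, and higher in both in 2, 1 and 2. Against the called genes, alphaTry was lower in both sets (-0.45 and -0.53) and pros higher in both (0.13 and 0.12). Yp2 was at -0.60 in set 1 and 0.73 in set 2. Of 4 listed flight muscle genes, Act88F and fln were at 0.539 CPM or less. Mf had 239 and 259 CPM in wild type and 159 and 202 CPM in RNAi, and TpnC4 had 1.04 and 0.628 CPM and then 0.160 and 0.408 CPM, both lower in RNAi within both sets and neither called. Mf lay near the level of Mlc1 in the visceral and body muscle list (236 and 272 CPM, then 172 and 191 CPM). It is not read here as a sign of flight muscle. The part of these marker genes in the values of SdhA, ND-51 and the other members was not tested.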

How the data were processed

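The deposited table holds raw read counts per gene, whole numbers without normalization, with a column for each library. FastQC, STAR and BDGP6 are named in the submitters' processing notes; versions, counting tool, strand setting and annotation release are not given in the sources used here. Symbols were matched for 17405 of 17510 identifiers, and positions and exon lengths came from an Ensembl BDGP6 annotation.

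The main test used edgeR 4.0.16 under R 4.3.3: filterByExpr (9637 genes kept), TMM scaling, and the quasi-likelihood test with robust estimation, genotype as the only term, adjusted by Benjamini-Hochberg over all genes tested, with calls at 0.05. The SE is the log2 fold change divided by the square root of F. log2 CPM used a prior count of 2. DESeq2 1.42.0, limma 3.58.1 (voom), other scalings and filters, left-out libraries and a library-set term were alternatives. Named members were, per complex, the 3 with the smallest p, the 2 most abundant per length and the 1 with the smallest p with the set term, plus the 3 most abundant genes with names ending in L, any called, and Cftr. Members, lists and alternatives were chosen with earlier results of these data known. No sequences were used.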

Additional observations from a re-analysis of the deposited data

How the results depend on the processing

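The count of 0 members called in either direction held in edgeR under RLE, upper-quartile or library-size scaling, other count filters, non-robust estimation and each left-out library, and in DESeq2 and limma-voom. The lower count was 2 with the library set as a term in edgeR, DESeq2 or limma-voom, and 3 when the exon-length trend was also removed. The median log2 fold change of -0.17 ranged from 0.20 to -0.48 over left-out libraries and from -0.19 to -0.07 over the other settings, the last with library size alone, where the median of all genes was 0.11. The labels give no replicate numbers that pair libraries, so the only blocked fits are those with the library set, which was read from the counts. Counts of the tested duplicates, at a few CPM or less, limit their values. The biological coefficient of variation over all tested genes was 36.1%, and 14.8% with the set as a term.

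Signs of named genes near 0 turned. COX7B was at 0.010, 0.079 and 0.030 with upper-quartile factors, library size alone and a 5 CPM minimum. COX8 was at -0.0046 with the set term in limma-voom, and -0.109 with the length trend removed, without and with the set term. ND-51L1 was at -0.010, -0.0050 and -0.036 with the set term in edgeR, DESeq2 and limma-voom. ND-MLRQ was at -0.0057 without a count filter, -0.011 with the set term in limma-voom, and -0.131 and -0.112 with the length trend removed, without and with the set term. UQCR-6.4L was at -0.018 in limma-voom and -0.048 and -0.012 with the length trend removed, without and with the set term.
Over the left-out libraries the log2 fold change ranged from -0.78 to 0.083 for ATPsynB, -0.62 to 0.092 for ATPsynC, -0.57 to 0.036 for COX5B, -0.62 to 0.36 for COX7B, -0.48 to 0.42 for COX8, -1.48 to 0.20 for Cftr, -0.41 to 0.39 for ND-51L1 and -0.86 to 0.99 for ND-B12. It also ranged from -0.24 to 0.20 for ND-MLRQ, -0.81 to 0.20 for SdhB, -0.46 to 0.56 for SdhC, -0.50 to 0.20 for SdhD, -0.12 to 0.82 for UQCR-11, -0.52 to 0.095 for UQCR-11L, -0.84 to 0.79 for UQCR-6.4L and -0.57 to 0.12 for UQCR-C2. Direction held over left-out libraries for ND-51, SdhA, COX7A, COX6B, ND-SGDH, ND-39, UQCR-C1 and ATPsynbeta. The value nearest 0 was -0.73 for ND-51, -0.70 for SdhA, -0.24 for COX7A, -0.098 for ATPsynbeta and -0.091 for ND-SGDH. UQCR-C1 (-0.034), ND-39 (-0.018) and COX6B (-0.0035) all but reached 0.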

Other observations

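The 2 tested members on chromosome 4, ATPsynbeta and ND-49, were both among the few that were higher in the second library of each genotype. Over the 82 tested genes of chromosome 4 the median log2 CPM difference was 0.46 between wild type 2 and wild type 1 and 0.11 between RNAi 2 and RNAi 1, against -0.001 and -0.013 over all other tested genes. The median exon length of those 82 genes was 4174 bases, against 2048 for the others, and the part of length in their values was not tested. Within set 1 the chromosome 4 genes had a median genotype difference of 0.24, and within set 2 of -0.24.

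Of the 14 tested genes listed for the tricarboxylic acid cycle, Ogdh, mAcon1, Idh3g and ScsbetaA were higher in the second library of both genotypes, where the background was 38.2%. Over the 14 genes the median log2 CPM difference was -0.29 between wild type 2 and wild type 1 and 0.26 between RNAi 2 and RNAi 1. The alpha-ketoglutarate dehydrogenase gene Ogdh had 169 and 259.8 CPM in wild type and 148 and 329 CPM in RNAi. The aconitase gene mAcon1 had 588 and 781 CPM in wild type and 445 and 769 CPM in RNAi. The exon lengths of Ogdh and mAcon1 were 5344 and 3103 bases.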
